A study of Mus musculus with 12 samples.

Results

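The interaction of guide and interferon gamma (IFN-gamma) was measured in 4T1 cells, which derive from a mammary tumour of a BALB/c mouse: how far the response to IFN-gamma in cells carrying a guide against Cebpd departed from the response in control cells. All 12 libraries of the series entered this comparison. Of 16283 genes in the count table, 13601 had enough counts to be tested, and 8688 of them were called. Cells with the genotype label Cebpd knockout had received sgRNA1 or sgRNA2, both directed at Cebpd, and control cells a guide directed at Rosa26, a site that is often edited as a neutral control. Cells with each guide were measured after IFN-gamma (20 ng/ml for 24 hours) and with vehicle, with 2 libraries in each of the 6 groups. The sources used here do not say whether the cells of a guide were a pool or 1 clone, or whether the libraries of a group were grown apart. The p-values therefore measure only the spread between these libraries, which may be technical.

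IFN-gamma is a cytokine of T cells and natural killer cells. Its receptor chains IFNGR1 and IFNGR2 activate the kinases JAK1 and JAK2, and the signal reaches GAS elements in the promoters of genes for antigen presentation, guanylate-binding proteins, chemokines and further transcription factors such as IRF1. C/EBPδ, the product of Cebpd, is a transcription factor of the basic leucine zipper type that inflammatory cytokines induce and that binds promoters of acute phase genes. A statement that a gene responds differently to IFN-gamma can rest on its level after IFN-gamma, on its level before, or on both. The genes were therefore also sorted by which of the 2 levels set the Cebpd guides apart from control.

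For each gene, the interaction was the log2 response (IFN-gamma minus vehicle) averaged over sgRNA1 and sgRNA2, minus the log2 response in control. A positive interaction means that the response with the Cebpd guides was the more positive one, and it is called higher here. A negative interaction is called lower. Called means a Benjamini-Hochberg adjusted p below 0.05 in edgeR's quasi-likelihood test over all genes tested. Levels are CPM (each gene's counts scaled to a common library total, after TMM normalization), and log2 differences of single genes are given with the standard error (SE) that their F statistic implies. That SE restates the test.

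Total counts per library lay between 16912710 and 24784371. Libraries of the same group differed by more than sampling noise, with a chi-square per degree of freedom between 2.70 and 6.91, and all were kept. Mitochondrially encoded mRNAs took 0.533% to 0.628% of counts with the Cebpd guides and 1.03% to 1.18% in control after IFN-gamma, and 0.814% to 1.14% with the Cebpd guides and 0.620% to 0.670% in control with vehicle. The mRNAs of cytosolic ribosomal proteins took 7.31% to 11.4% with the Cebpd guides and 7.77% to 7.78% in control after IFN-gamma, and 11.3% to 13.5% with the Cebpd guides and 8.70% to 8.77% in control with vehicle. The epithelial list, of which 17 of 18 genes were in the table, summed to 4274 to 4419 CPM with the Cebpd guides and 4784 to 4846 CPM in control after IFN-gamma, and to 4563 to 4842 CPM with the Cebpd guides and 4641 to 4673 CPM in control with vehicle. The mesenchymal list, with 8 of 16 genes in the table, summed to 1463 to 1628 CPM with the Cebpd guides and 2334 to 2368 CPM in control after IFN-gamma, and to 1208 to 1683 CPM with the Cebpd guides and 1620 to 1654 CPM in control with vehicle. Of 20 leukocyte markers, 6 were in the table, and they summed to 46.3 to 51.0 CPM with the Cebpd guides and 44.0 to 44.1 CPM in control after IFN-gamma, and to 28.1 to 48.7 CPM with the Cebpd guides and 14.5 to 16.3 CPM in control with vehicle. Of these 6, Ptprc had 0 to 10 counts and Itgam 0 to 3 counts per library. The others were present at 73 to 740 counts (Cd68), 167 to 585 (Cd14), 6 to 159 (Csf1r) and 0 to 91 (S100a8). Csf1r had 145 and 159 counts with sgRNA2 and 15 and 14 in control in vehicle. Of 11 endothelial and erythroid markers, 2 were in the table, at a sum of at most 0.473 CPM. The part of these shares and markers in the results was not tested. In bulk RNA, fewer cells of a type and less RNA per cell cannot be told apart.

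Cebpd mRNA was present in every library. After IFN-gamma, the gene (ENSMUSG00000071637.5, chr16:15887286-15891031, plus strand) had 45.9 and 45.6 CPM with sgRNA1, 30.2 and 29.4 CPM with sgRNA2 and 53.5 and 49.1 CPM in control. With vehicle it had 13.6 and 13.4 CPM with sgRNA1, 10.6 and 8.51 CPM with sgRNA2 and 9.09 and 7.13 CPM in control. Every IFN-gamma library lay above every vehicle library, and within a treatment the groups did not overlap except for sgRNA2 and control in vehicle. The interaction was -0.96 ± 0.13, adjusted p = 3.75e-06, with the Cebpd guides above control in vehicle and below it after IFN-gamma. With the guides joined into 1 group the adjusted p was 0.0644. Where the guides cut is not stated in the sources used here, so the mRNA level neither bears out nor contradicts the knockout label.

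Of 13601 genes tested, 8688 (63.9%) were called in the interaction, 4152 of them higher (30.5%) and 4536 lower (33.4%). The difference reached 2-fold for 1274 of the higher and 1648 of the lower genes. The median interaction over all genes tested was -0.05. The guides differed from each other as well, and the 2 libraries of a group were much alike, with a common coefficient of variation of 4.67%. When the 4 libraries of both guides were joined into 1 group per treatment, so that the difference between guides counted as spread, 2663 genes were called, 1080 higher and 1583 lower. All 2663 were among the 8688, with the same sign. Counts in the joint fit are given below beside the counts of each list described. The counts of a list are to be read beside 30.5% higher and 33.4% lower over all genes tested. Its joint counts are to be read beside 1080 higher and 1583 lower of 13601.

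Sorting by level split the called genes into 4 classes. It used the mean of both guides, so a single guide can fall in another class than the one given. In 3114 genes (35.8%) the difference between the Cebpd guides and control in vehicle was at least 2 times that after IFN-gamma, and these are named the vehicle-level class. In 2750 genes (31.7%) the difference after IFN-gamma was at least 2 times that in vehicle (the IFN-gamma-level class). In 2130 genes (24.5%) neither difference was 2 times the other and their signs were opposite (the opposite class). The mean of the Cebpd guides thus changed sides of control between the treatments. Of these, 1893 had a called difference in vehicle and 1888 after IFN-gamma. In 693 genes (7.98%) neither difference was 2 times the other and both had the same sign, and 1 gene was left unsorted. Genes of the vehicle-level and IFN-gamma-level classes can change sides of control too, as Icam1 did (below). The share of the opposite class is therefore not the share of all called genes that changed sides. Among called genes that reached 2-fold, the opposite class was the most frequent with 1167 genes, against 1024 of the vehicle level, 707 of the IFN-gamma level and 23 of the same direction. The sorting rule favours this: differences of opposite sign add up in the interaction, and those of the same sign partly cancel. In the joint fit the order was another: 1083 genes of the IFN-gamma level, 855 opposite, 701 of the vehicle level and 24 of the same direction. With a ratio of 3 in place of 2 the opposite class was the largest, with 3057 genes against 2214 of the vehicle level and 1977 of the IFN-gamma level. The classes meet at a line and not at a gap: Washc4, just at or above the ratio of 2, was placed in the vehicle-level class, and Zfp97, just below it, was not. Dynlrb1 was called at an adjusted p of 0.04996 and Vmac, at 0.05001, was not.

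**Figure D1:**
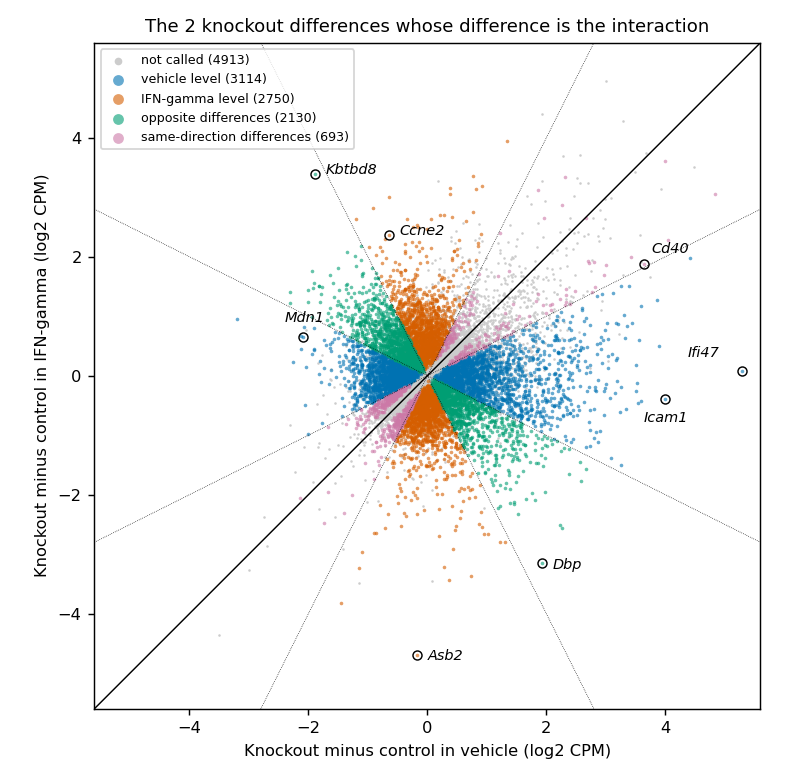
Difference between the Cebpd guides and control in IFN-gamma (vertical axis, log2 CPM) against the same difference in vehicle (horizontal axis, log2 CPM), 1 point per gene tested and coloured by sorted class. Genes on the solid diagonal have no interaction, dotted lines mark the ratio of 2, and 1 gene lies outside the axes. Ifi47 and Icam1 lie far along the horizontal axis, Asb2 and Ccne2 along the vertical axis, and Kbtbd8 and Dbp where the signs of both differences are unlike.

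A called interaction often meant that the responses themselves ran in unlike directions. IFN-gamma raised 34.7% and lowered 34.2% of all genes tested with the Cebpd guides, and raised 36.4% and lowered 34.1% in control cells. Among the 8688 called genes, 1717 rose in both and 1256 fell in both. In 2284 (26.3%) both responses were called with unlike signs: 1131 fell with the Cebpd guides and rose in control, and 1153 rose with the Cebpd guides and fell in control. A further 1307 responded with the Cebpd guides alone and 2029 in control alone by the threshold, and 95 in neither. The median absolute log2 response was 0.409 with sgRNA1, 0.373 with sgRNA2 and 0.575 in control. On the scale of CPM itself the difference of differences had the same sign as on the log2 scale in all but 93 called genes (1.07%). Ifi47 was one of these 93, at 1.5 CPM, since its knockout-labelled and control levels gained nearly the same number of CPM.

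Of the 1728 genes of the vehicle level with a lower interaction, 364 rose and 1006 fell with IFN-gamma with the Cebpd guides, while 1158 rose and 141 fell in control. That the responses lean apart in this way follows from the sign of the interaction, by which the genes were chosen. The same holds for the counts of rises and falls in the other classes below. Genes of the interferon gamma response were mostly called lower, most often in the vehicle-level class. Of its 43 tested members, 33 were called lower and 2 higher, with a median of -2.09 (-1.74 with every library raised to at least 3 counts), and 30 lower in the joint fit. By class, 19 of the 33 were of the vehicle level, 10 opposite and 4 of the IFN-gamma level. The members still rose steeply with the Cebpd guides: the median log2 response was 5.54 with them and 7.95 in control. Their median difference from control was -0.54 after IFN-gamma and 1.40 in vehicle, with every library raised to at least 3 counts. The median differences from control of lists below use this floor too, while median interactions and responses do not unless stated. Of the 43, 32 were called below control and 6 above it after IFN-gamma, and 31 above and 1 below in vehicle. Over all 13601 genes tested these counts were 4541 and 4418 after IFN-gamma, and 4621 and 4586 in vehicle. The level after IFN-gamma was thus called different from control in more members than the level in vehicle. The class compares the size of log2 differences, not calls or CPM.

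Icam1, the adhesion molecule ICAM-1 bound by leukocyte integrins (ENSMUSG00000037405.8, chr9:21015985-21028817, plus strand), had 49.4 and 46.1 CPM with sgRNA1, 58.6 and 58.2 CPM with sgRNA2 and 69.4 and 68.7 CPM in control after IFN-gamma. In vehicle the values were 2.16 and 2.35 CPM with sgRNA1, 4.67 and 5.16 CPM with sgRNA2 and 0.207 and 0.210 CPM in control, where each control value stood for 4 counts. The Cebpd-guide libraries lay below control after IFN-gamma and above it in vehicle, without overlap. The difference from control was -0.39 ± 0.05 after IFN-gamma and 3.96 ± 0.25 in vehicle, and the interaction was -4.34 ± 0.25, adjusted p = 5.02e-11. Ifi47, an interferon-inducible GTPase, had 129.9 and 119 CPM with sgRNA1, 150.1 and 150.2 CPM with sgRNA2 and 131 and 128 CPM in control after IFN-gamma. In vehicle it had 108 and 92 counts with sgRNA1, 132 and 116 counts with sgRNA2 and 3 and 0 counts in control. After IFN-gamma sgRNA1 overlapped control and sgRNA2 lay above it, and in vehicle both lay above control. The control counts are too few for a fold, and the interaction was called at an adjusted p of 2.12e-11.

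Nos2, the inducible nitric oxide synthase, had 724 and 773 CPM with sgRNA1, 787 and 768 CPM with sgRNA2 and 1304 and 1315 CPM in control after IFN-gamma. The vehicle libraries had 21.4 and 20.2 CPM with sgRNA1, 106 and 107 CPM with sgRNA2 and 6.87 and 7.44 CPM in control. Both guides lay below control after IFN-gamma and above it in vehicle, with sgRNA2 the highest group there, and the interaction was -3.49 ± 0.08, adjusted p = 5.21e-16. Gbp2, a guanylate-binding protein, had an interaction of -3.81 ± 0.17, adjusted p = 1.81e-12, with 4.28 and 6.22 CPM with sgRNA1, 16.1 and 15.5 CPM with sgRNA2 and 0.930 and 1.52 CPM in control in vehicle. Reads of the Gbp family can be shared between near-identical copies, so its values are uncertain to that extent. The 2 members called higher were Wars, a tryptophan tRNA ligase induced by interferon (1.49 ± 0.06, adjusted p = 4.48e-13), and Il15ra, the alpha chain of the interleukin 15 receptor (0.65 ± 0.15, adjusted p = 0.00118). In the joint fit Il15ra was not called (adjusted p = 0.0567).

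Type I interferon-stimulated genes and MHC class I genes were also mostly called lower and sorted to the vehicle level. Of 39 type I genes tested, 33 were called lower and 2 higher, with a median of -1.13, and 25 of the 33 were of the vehicle level. In the joint fit 18 were lower. On the scale of CPM itself, 13 of the 35 called genes had the other sign, against 93 of 8688 over all called genes. Their median difference from control was -0.07 after IFN-gamma and 1.22 in vehicle. Zbp1, a sensor of Z-form nucleic acids, had 112 and 106 CPM with sgRNA1, 141 and 137 CPM with sgRNA2 and 140.4 and 144 CPM in control after IFN-gamma. Without IFN-gamma it stood at 1.06 and 1.57 CPM with sgRNA1, 4.41 and 4.77 CPM with sgRNA2 and 0.413 and 0.210 CPM in control, and its interaction was -3.14 ± 0.28, adjusted p = 1.97e-08. The exceptions were the translation kinase Eif2ak2 (0.23 ± 0.07), which was not called in the joint fit (adjusted p = 0.405), and the ubiquitin ligase Rnf213 (0.92 ± 0.06).

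Of 25 tested genes of MHC class I presentation, 22 were called lower, 18 of them of the vehicle level, and 19 were lower in the joint fit. The median interaction was -1.22. Of the 25, 16 were called below control and 3 above it after IFN-gamma, and 22 above and 1 below in vehicle. Psmb9, an immunoproteasome subunit, had 233 and 209.6 CPM with sgRNA1, 299 and 308 CPM with sgRNA2 and 293 and 277 CPM in control after IFN-gamma. Vehicle libraries showed 5.79 and 4.65 CPM with sgRNA1, 21.0 and 20.5 CPM with sgRNA2 and 1.08 and 1.52 CPM in control. After IFN-gamma sgRNA1 lay below control and sgRNA2 above it, in vehicle both lay above it, and the interaction was -3.14 ± 0.17, adjusted p = 2.25e-11. Tap1, a subunit of the peptide transporter TAP, had an interaction of -2.50 ± 0.10, adjusted p = 3.21e-13, and H2-T23, a nonclassical class I heavy chain whose reads can be shared within the H2 family, one of -2.70 ± 0.07, adjusted p = 1.86e-15. Calr, which encodes the chaperone calreticulin, was the 1 member called higher (0.37 ± 0.05), and it was not called in the joint fit (adjusted p = 0.525). Of 9 tested class II genes, 5 were lower and 1, Ifi30, higher, with 3 lower and 0 higher in the joint fit. The call of Ifi30 (0.27 ± 0.11, adjusted p = 0.0482) was lost on leaving out any 1 of 8 libraries and, with all libraries kept, in every alternative fit except the one filtered at a mean of 1 CPM. Cd74, the invariant chain, had 103 and 103 CPM with sgRNA1, 104 and 96.4 CPM with sgRNA2 and 143 and 135 CPM in control after IFN-gamma and 4.83 and 5.73 CPM with sgRNA1, 10.1 and 9.81 CPM with sgRNA2 and 0.517 and 0.734 CPM in control in vehicle, with an interaction of -3.97 ± 0.19, adjusted p = 3.07e-12.

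Acute phase and complement genes were lower as well: of 17 tested, 14 were lower and none higher, and 11 were lower in the joint fit. The median interaction was -2.28 (-1.81 with every library raised to at least 3 counts). Of the 14, 11 were of the vehicle level. Their median difference from control in vehicle was 1.58 with sgRNA1 and 1.92 with sgRNA2, and after IFN-gamma it was -0.22 with sgRNA1 and 0.08 with sgRNA2. Lcn2, lipocalin 2, a protein that binds bacterial iron carriers (ENSMUSG00000026822.14, chr2:32384633-32388252, minus strand), had 128 and 128 CPM with sgRNA1, 156 and 142 CPM with sgRNA2 and 162 and 169 CPM in control after IFN-gamma. Its vehicle values were 53.0 and 52.9 CPM with sgRNA1, 97.7 and 95.5 CPM with sgRNA2 and 9.61 and 8.70 CPM in control. The Cebpd guides lay below control after IFN-gamma and above it in vehicle, and the interaction was -3.22 ± 0.08, adjusted p = 1.44e-15. C3, the central complement component, was of the opposite class. It had 422 and 437 CPM with sgRNA1, 522 and 533 CPM with sgRNA2 and 1335 and 1349 CPM in control after IFN-gamma. In vehicle it stood at 89.0 and 96.3 CPM with sgRNA1, 261 and 256 CPM with sgRNA2 and 70.7 and 69.7 CPM in control, and the interaction was -2.63 ± 0.06, adjusted p = 5.21e-16.

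The promoters of Lcn2 and C3 are shown because C/EBP proteins are known to bind promoters of acute phase genes. Each window runs from 250 bases before to 50 bases after the gene's start, from RefSeq on GRCm38.p6, 5′ to 3′ along the gene's strand, with the match to the C/EBP motif in capitals.
Lcn2, chr2:32387690-32387989, minus strand: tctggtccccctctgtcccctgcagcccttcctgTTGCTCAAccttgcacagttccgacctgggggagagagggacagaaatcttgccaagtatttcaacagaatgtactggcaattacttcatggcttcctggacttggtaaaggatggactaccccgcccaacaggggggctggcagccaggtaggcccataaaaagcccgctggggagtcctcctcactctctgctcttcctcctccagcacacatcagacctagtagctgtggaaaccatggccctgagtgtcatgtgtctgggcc
C3, chr17:57228087-57228386, minus strand: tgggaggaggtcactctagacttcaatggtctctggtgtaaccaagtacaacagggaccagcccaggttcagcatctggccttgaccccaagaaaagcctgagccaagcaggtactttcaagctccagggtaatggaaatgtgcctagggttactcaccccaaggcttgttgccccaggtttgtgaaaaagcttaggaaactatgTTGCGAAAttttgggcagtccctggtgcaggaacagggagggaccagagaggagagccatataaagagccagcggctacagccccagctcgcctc
The motif searched was TTGCNNAA on both strands. It was found in 10 of the 18 windows of the acute phase list (55.6%), in 8.30% of the 12837 windows of the genes tested and in 10.8% of the 32851 windows in the table. Windows are counted per start, so a gene can have several. A match describes the letters and not a bound site.

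GAS (TTCNNNGAA) and ISRE (GAAANNGAA), the elements of the IFN-gamma response and of interferon regulatory factors, were searched in the same way. GAS was in 39.4% and ISRE in 51.5% of the 33 windows of the interferon gamma response list, against 6.89% and 7.15% of the windows of the genes tested. Over all genes of the vehicle-level class called lower, they were in 7.80% and 9.44% of windows. The Icam1 window is shown as a vehicle-level gene with 1 match to GAS, in capitals.
Icam1, chr9:21015690-21015989, plus strand: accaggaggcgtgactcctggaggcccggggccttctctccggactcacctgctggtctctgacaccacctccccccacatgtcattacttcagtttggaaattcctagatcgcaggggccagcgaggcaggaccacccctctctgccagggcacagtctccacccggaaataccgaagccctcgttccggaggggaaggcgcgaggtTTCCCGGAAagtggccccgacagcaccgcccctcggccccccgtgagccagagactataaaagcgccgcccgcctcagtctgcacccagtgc

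**Figure D2:**
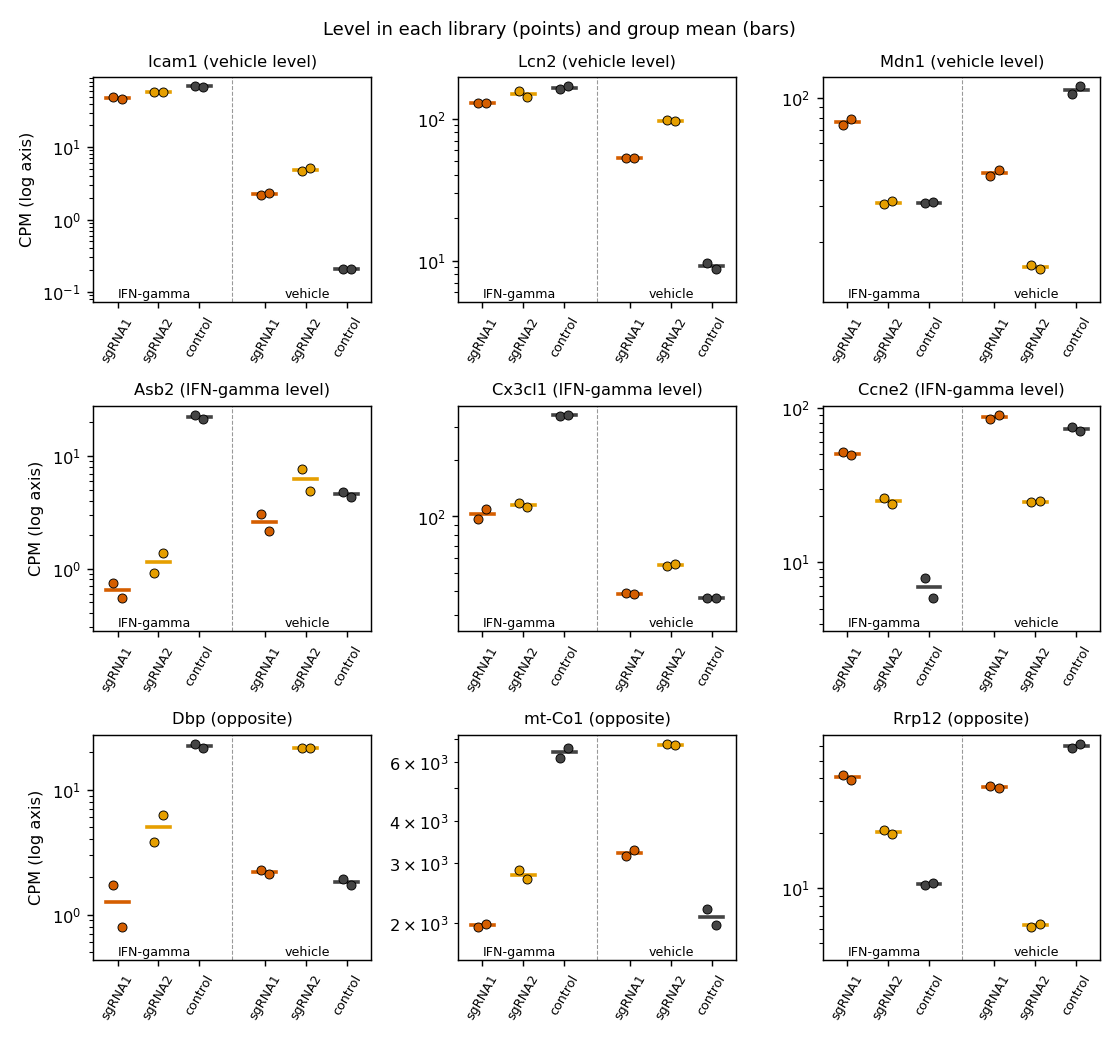
CPM in each library (points) and the mean of each group (bars) for 9 genes, with IFN-gamma at the left and vehicle at the right of every panel and a log axis. In Icam1 and Lcn2 the Cebpd guides stand apart from control mainly in vehicle, in Asb2 and Cx3cl1 mainly after IFN-gamma, and in Dbp, mt-Co1 and Rrp12 control is at one end in IFN-gamma and at the other in vehicle, with sgRNA1 near control for Dbp in vehicle.

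Hypoxia and glycolysis genes were called lower in 30 of 37 tested and higher in 3, with a median of -0.84 and 9 lower in the joint fit. The levels in vehicle stood farther from control with sgRNA2: the median difference from control in vehicle was 0.12 with sgRNA1 and 1.16 with sgRNA2. Adm, which encodes the vasodilator peptide adrenomedullin, had 6.51 and 6.31 CPM with sgRNA1, 7.95 and 7.93 CPM with sgRNA2 and 8.70 and 9.72 CPM in control after IFN-gamma. With vehicle it had 15.6 and 12.8 CPM with sgRNA1, 86.8 and 82.3 CPM with sgRNA2 and 7.28 and 7.29 CPM in control. It fell with IFN-gamma with the Cebpd guides (-2.28 ± 0.08) and rose in control (0.34 ± 0.12), and the interaction was -2.62 ± 0.14, adjusted p = 2.28e-11. The glycolytic genes Aldoc and Eno2 had interactions of -2.79 ± 0.09 and -2.72 ± 0.09. The members called higher were Ldha, Eno1 and Higd1a (5 members without sgRNA2 vehicle replicate 2 or without sgRNA2 IFN-gamma replicate 1), none of which was called in the joint fit (adjusted p = 0.0759, 0.326 and 0.13).

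Of the 1386 vehicle-level genes with a higher interaction, 943 rose and 166 fell with IFN-gamma with the Cebpd guides, while 161 rose and 927 fell in control. They included genes of ribosome assembly. Mdn1, an AAA ATPase that remodels precursors of the large ribosomal subunit (ENSMUSG00000058006.12, chr4:32657119-32775217, plus strand), had 73.4 and 79.2 CPM with sgRNA1, 30.5 and 31.6 CPM with sgRNA2 and 30.8 and 31.0 CPM in control after IFN-gamma. In vehicle the values were 41.9 and 44.5 CPM with sgRNA1, 15.4 and 14.8 CPM with sgRNA2 and 104 and 114 CPM in control. In vehicle all libraries of the Cebpd guides lay below control, and after IFN-gamma sgRNA1 lay above control while sgRNA2 overlapped it. The interaction was 2.74 ± 0.08, adjusted p = 1.08e-14. Utp20, of the small subunit processome, had an interaction of 2.30 ± 0.08, adjusted p = 8.3e-14. Rrs1, also of ribosome assembly (2.29 ± 0.07), Pprc1, a coactivator of the PGC-1 family (2.23 ± 0.08), Bend3 (2.89 ± 0.16) and the zinc exporter Slc30a1 (2.48 ± 0.20) were called here but not in the joint fit (adjusted p = 0.065, 0.0765, 0.0561 and 0.061).

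Lower vehicle-level genes outside the lists included Ramp1, Upk3bl and Tcp11l2. Ramp1, a partner protein of the calcitonin receptor-like receptor, had 0.937 and 0.646 CPM with sgRNA1, 0.859 and 0.824 CPM with sgRNA2 and 1.02 and 1.18 CPM in control after IFN-gamma. The vehicle libraries had 4.38 and 4.28 CPM with sgRNA1, 14.2 and 14.0 CPM with sgRNA2 and 0.671 and 0.629 CPM in control, and the interaction was -4.00 ± 0.35, adjusted p = 1.64e-08. After IFN-gamma the control libraries were the highest, by a difference that was not called, and in vehicle they were the lowest and sgRNA2 the highest. Upk3bl had an interaction of -4.44 ± 0.33, adjusted p = 1.38e-09 and Tcp11l2 one of -3.96 ± 0.28, adjusted p = 8.07e-10.

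Sterol and fatty acid synthesis genes were called higher in 22 of 30 tested and lower in 3, with a median of 0.38. In the joint fit 2 were higher and 2 lower. Lss, lanosterol synthase, had an interaction of 1.47 ± 0.07, adjusted p = 2.76e-12, with 71.2 and 66.6 CPM with sgRNA1, 41.9 and 40.2 CPM with sgRNA2 and 111 and 117 CPM in control in vehicle. The 3 lower genes were Insig1 (-0.81 ± 0.07), Scd1 (-0.42 ± 0.07) and Srebf2 (-0.28 ± 0.06). DNA replication genes were called higher in 38 of 41 tested and lower in 2 (Gins2 and Pold1), with a median of 0.74 and 5 higher in the joint fit. Over all 13601 genes tested, 30.5% were higher and 33.4% lower, and the joint fit called 1080 higher and 1583 lower. The joint counts of these 2 lists are thus few, and nothing is read from them. By class, 18 of the 38 were of the vehicle level, 9 opposite, 6 of the IFN-gamma level and 5 of the same direction.

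Of the 1315 genes of the IFN-gamma level with a higher interaction, 365 rose and 504 fell with the Cebpd guides, while 35 rose and 1156 fell in control. The cyclin genes Ccne1 and Ccne2, whose products drive entry into S phase, were among the higher ones. Ccne2 had 51.5 and 49.9 CPM with sgRNA1, 25.9 and 23.9 CPM with sgRNA2 and 7.88 and 5.86 CPM in control after IFN-gamma. Without IFN-gamma it stood at 84.6 and 89.9 CPM with sgRNA1, 24.6 and 24.9 CPM with sgRNA2 and 75.2 and 70.9 CPM in control. After IFN-gamma every Cebpd-guide library lay above control, and in vehicle sgRNA2 lay below both others. The interaction was 3.02 ± 0.11, adjusted p = 1.37e-13, and for Ccne1 it was 2.86 ± 0.16, adjusted p = 2.67e-11. The host gene of small nucleolar RNAs Snhg15 (2.75 ± 0.17), the extracellular protease Adamts8 (2.48 ± 0.24) and Nop56, a core protein of box C/D small nucleolar particles (2.46 ± 0.05), were higher as well. Ptgs2, the prostaglandin synthase COX-2, had 817 and 838 CPM with sgRNA1, 509 and 491 CPM with sgRNA2 and 201 and 205 CPM in control after IFN-gamma and 292 and 315 CPM with sgRNA1, 193 and 198 CPM with sgRNA2 and 289 and 277 CPM in control in vehicle. It rose with the Cebpd guides (1.40 ± 0.03) and fell in control (-0.48 ± 0.05), with an interaction of 1.88 ± 0.06, adjusted p = 1.62e-14.

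Of the 1435 genes of the IFN-gamma level with a lower interaction, 607 rose and 490 fell with the Cebpd guides, while 1232 rose and 54 fell in control. Asb2, a subunit of ubiquitin ligases (ENSMUSG00000021200.14, chr12:103321142-103356001, minus strand), had 0.750 and 0.547 CPM with sgRNA1, 0.913 and 1.37 CPM with sgRNA2 and 23.2 and 21.3 CPM in control after IFN-gamma. Vehicle libraries showed 3.07 and 2.17 CPM with sgRNA1, 7.67 and 4.88 CPM with sgRNA2 and 4.80 and 4.35 CPM in control. After IFN-gamma every Cebpd-guide library lay far below control, while in vehicle sgRNA1 lay below control and sgRNA2 above it. It fell with the Cebpd guides (-2.22 ± 0.21) and rose in control (2.28 ± 0.19), and the interaction was -4.50 ± 0.28, adjusted p = 1.67e-10. Vsir, which encodes the immune checkpoint protein VISTA, had 2.06 and 2.29 CPM with sgRNA1, 3.6 and 4.20 CPM with sgRNA2 and 22.2 and 18.2 CPM in control after IFN-gamma. Its vehicle values were 5.08 and 4.16 CPM with sgRNA1, 20.7 and 21.2 CPM with sgRNA2 and 3.41 and 4.51 CPM in control, and its interaction was -4.11 ± 0.20, adjusted p = 7.03e-12. In vehicle sgRNA2 lay far above control and sgRNA1 overlapped it, and after IFN-gamma both guides lay below control. Enpp2, autotaxin, which makes lysophosphatidic acid, had an interaction of -4.00 ± 0.23, adjusted p = 5.08e-11. Notch3 (-3.04 ± 0.29) and the guanine nucleotide exchange factor Ngef (-3 ± 0.15) were lower too. Pigr, the transporter of polymeric immunoglobulins, had 0.515 and 0.348 CPM with sgRNA1, 0.752 and 0.628 CPM with sgRNA2 and 6.24 and 5.55 CPM in control after IFN-gamma and 0 to 6 counts per library in vehicle, too few for a fold.

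Cx3cl1, the chemokine fractalkine, had 96.8 and 109 CPM with sgRNA1, 118 and 112 CPM with sgRNA2 and 344 and 346 CPM in control after IFN-gamma. In vehicle it stood at 39.0 and 38.6 CPM with sgRNA1, 54.5 and 55.8 CPM with sgRNA2 and 37.0 and 36.8 CPM in control. It rose in all cells, by 1.23 ± 0.04 with the Cebpd guides and 3.22 ± 0.06 in control, and the interaction was -1.99 ± 0.07, adjusted p = 8.86e-14. The list of chemokines and myeloid growth factors as a whole had no single direction, with 9 higher and 6 lower of 18 tested (3 lower without control vehicle replicate 1). In the joint fit 1 was higher and 1 lower. Csf2, the growth factor GM-CSF, was higher (1.95 ± 0.25; adjusted p = 0.0548 in the joint fit), as was the neutrophil chemokine Cxcl3 (2.04 ± 0.10, adjusted p = 9.14e-12).

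Components of the JAK-STAT pathway were called lower in 18 of 26 tested and higher in 6, with a median of -0.82 and 13 lower in the joint fit. Of the 18, 9 were of the IFN-gamma level, 7 opposite and 2 of the vehicle level. Tyk2, a Janus kinase, had 25.7 and 24.0 CPM with sgRNA1, 33.3 and 33.0 CPM with sgRNA2 and 68.0 and 60.8 CPM in control after IFN-gamma. With vehicle it had 18.8 and 18.5 CPM with sgRNA1, 45.3 and 46.8 CPM with sgRNA2 and 16.9 and 22.3 CPM in control. After IFN-gamma both guides lay below control, and the interaction was -1.74 ± 0.11, adjusted p = 2.96e-10. Stat5a (-1.46 ± 0.16), Pias3, an inhibitor of STAT proteins (-1.63 ± 0.09), and Jak3 (-1.60 ± 0.08) were lower, and Jak3 was not called in the joint fit (adjusted p = 0.0503). The members called higher were Ptpn1, Ptpn2, Socs1, Socs4, Socs6 and Stat6, and none of them was called in the joint fit. Socs1, a feedback inhibitor of JAK kinases, was 0.56 ± 0.13.

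The parts of the pathway that IFN-gamma itself uses were also looked up, a choice made after their values were seen. Ifngr1 had an interaction of -0.82 ± 0.08, Ifngr2 one of -1.20 ± 0.10, Jak1 one of -0.54 ± 0.05 and Jak2 one of -1.22 ± 0.06. Irf1, a transcription factor of the interferon response, was sorted to the vehicle level, with 508 and 506 CPM with sgRNA1, 619 and 633 CPM with sgRNA2 and 777 and 779 CPM in control after IFN-gamma. The vehicle libraries had 48.8 and 49.7 CPM with sgRNA1, 126 and 127 CPM with sgRNA2 and 22.6 and 26.6 CPM in control, and its interaction was -2.15 ± 0.07, adjusted p = 2.87e-14. Cd274, which encodes the checkpoint ligand PD-L1, was of the IFN-gamma level, with 49.7 and 54.7 CPM with sgRNA1, 78.7 and 77.6 CPM with sgRNA2 and 142 and 151 CPM in control after IFN-gamma and an interaction of -1.49 ± 0.31, adjusted p = 0.000396.

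Genes of mitosis were called lower in 30 of 38 tested and higher in 4, with a median of -0.35, and 12 were lower in the joint fit. Of the 30, 19 were of the IFN-gamma level. Cdc25b, a phosphatase that activates cyclin-dependent kinases, had 92.6 and 100.1 CPM with sgRNA1, 99.0 and 104 CPM with sgRNA2 and 190.0 and 184 CPM in control after IFN-gamma. Without IFN-gamma it stood at 86.3 and 82.9 CPM with sgRNA1, 135 and 131 CPM with sgRNA2 and 90.5 and 89.9 CPM in control, and its interaction was -1.15 ± 0.06, adjusted p = 1.4e-11. Mybl2, a transcription factor of the cell cycle, went the other way (1.23 ± 0.09), as did Cdk1, Foxm1 and Nuf2. None of these 4 was called in the joint fit.

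In the opposite class, the mean of the Cebpd guides was on 1 side of control in vehicle and on the other after IFN-gamma. Of its 1129 genes called higher, 544 rose and 232 fell with the Cebpd guides, while 26 rose and 1012 fell in control. The list of ribosome biogenesis and the MYC network held 39 higher and 4 lower of 45 tested, with a median of 1.63, and 15 higher in the joint fit. Of the 39, 21 were of the opposite class, 13 of the vehicle level and 5 of the IFN-gamma level. Rrp12, an export factor of ribosomal subunits (ENSMUSG00000035049.4, chr19:41862851-41896173, minus strand), had 41.7 and 39.3 CPM with sgRNA1, 20.8 and 19.7 CPM with sgRNA2 and 10.4 and 10.7 CPM in control after IFN-gamma. Vehicle libraries showed 36.4 and 35.5 CPM with sgRNA1, 6.12 and 6.35 CPM with sgRNA2 and 59.1 and 61.8 CPM in control. Control was the lowest group after IFN-gamma and the highest in vehicle, without overlap. The interaction was 3.45 ± 0.09, adjusted p = 5.12e-15. Heatr1, of the small subunit processome, had an interaction of 2.71 ± 0.07, adjusted p = 3.92e-15, and Nop2, an RNA methyltransferase of the large subunit, one of 2.75 ± 0.08 (adjusted p = 0.0547 in the joint fit). The 4 lower members were Mnt, Mxd1, Mxd3 and Mxd4, all of which encode repressors that compete with MYC for the partner MAX. Mxd4 had an interaction of -2.28 ± 0.13, adjusted p = 4.83e-11 and Mnt one of -1.06 ± 0.09, adjusted p = 1.49e-08.

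The windows of Mdn1 and Trmt61a are shown because the E-box CACGTG, the motif that MYC and MAX bind, was found in 21.4% of the 42 windows of this list and in 15.5% of those of opposite genes called higher, against 9.84% of the windows of the genes tested and 7.15% of all in the table. Capitals mark the E-box, and in Trmt61a also a match to the C/EBP motif nearer its 5′ end.
Mdn1, chr4:32656869-32657168, plus strand: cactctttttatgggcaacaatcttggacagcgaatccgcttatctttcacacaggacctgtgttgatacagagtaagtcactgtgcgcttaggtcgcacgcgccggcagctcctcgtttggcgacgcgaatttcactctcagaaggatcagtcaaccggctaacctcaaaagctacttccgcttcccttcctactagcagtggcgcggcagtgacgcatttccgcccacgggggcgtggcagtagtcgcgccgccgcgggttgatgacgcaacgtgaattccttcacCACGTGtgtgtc
Trmt61a, chr12:111677855-111678154, plus strand: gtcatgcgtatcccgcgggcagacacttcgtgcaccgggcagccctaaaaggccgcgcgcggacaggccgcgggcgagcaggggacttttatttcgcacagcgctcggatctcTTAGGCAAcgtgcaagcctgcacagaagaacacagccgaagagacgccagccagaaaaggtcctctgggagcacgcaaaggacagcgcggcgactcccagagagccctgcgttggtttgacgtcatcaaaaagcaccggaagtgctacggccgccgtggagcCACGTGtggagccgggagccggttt

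Trmt61a, the catalytic subunit of a tRNA methyltransferase, had 23.9 and 21.2 CPM with sgRNA1, 8.38 and 9.34 CPM with sgRNA2 and 4.26 and 4.11 CPM in control after IFN-gamma. Its vehicle values were 33.3 and 32.6 CPM with sgRNA1, 4.82 and 4.25 CPM with sgRNA2 and 48.2 and 45.6 CPM in control. Control was the lowest group after IFN-gamma and the highest in vehicle. The interaction was 3.70 ± 0.14, adjusted p = 1.76e-13, and in the joint fit it was not called (adjusted p = 0.0612). Mat2a, which makes the methyl donor S-adenosylmethionine, had 81.0 and 77.5 CPM with sgRNA1, 33.4 and 35.0 CPM with sgRNA2 and 22.5 and 23.1 CPM in control after IFN-gamma. In vehicle it stood at 313 and 328 CPM with sgRNA1, 72.2 and 76.6 CPM with sgRNA2 and 308 and 308 CPM in control. It fell in all cells, with a log2 response of -1.57 ± 0.04 with the Cebpd guides and -3.75 ± 0.05 in control, and its interaction was 2.19 ± 0.07 (adjusted p = 0.114 in the joint fit). The list of methionine cycle and one-carbon genes held 13 higher and 5 lower of 19 tested, with 4 higher and 2 lower in the joint fit.

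A mixed list of amino acid genes covered ATF4, the transcription factor of amino acid shortage, with enzymes, transporters and tRNA ligases. Its members were called higher in 33 of 38 tested and lower in 2, with a median of 0.95 and 23 higher in the joint fit. The 33 were spread evenly, 11 in each of the vehicle-level, IFN-gamma-level and opposite classes. Slc7a11, the cystine transporter, had 27.3 and 27.2 CPM with sgRNA1, 26.9 and 25.2 CPM with sgRNA2 and 7.30 and 7.45 CPM in control after IFN-gamma. With vehicle it had 6.95 and 7.30 CPM with sgRNA1, 3.63 and 2.95 CPM with sgRNA2 and 11.7 and 10.5 CPM in control. It rose with the Cebpd guides (2.46 ± 0.09) and fell in control (-0.59 ± 0.12), and the interaction was 3.05 ± 0.15, adjusted p = 5.94e-12. Mthfd2, a mitochondrial folate enzyme, had an interaction of 2.16 ± 0.08, adjusted p = 9.16e-14, and Shmt2, which feeds it, one of 1.97 ± 0.06, adjusted p = 1.08e-14. The 2 lower members were Vldlr (-1.38 ± 0.23) and Nupr1 (-0.66 ± 0.09), neither of them called in the joint fit.

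Kbtbd8, an adaptor of a ubiquitin ligase, had 4.83 and 6.26 CPM with sgRNA1, 1.83 and 1.81 CPM with sgRNA2 and 0.193 and 0.411 CPM in control after IFN-gamma. In vehicle the values were 6.64 and 8.27 CPM with sgRNA1, 0.778 and 0.681 CPM with sgRNA2 and 9.50 and 7.86 CPM in control, and the interaction was 5.27 ± 0.37, adjusted p = 6.4e-10. The transporter Slc16a6 (3.70 ± 0.21) and the nuclease Aen, a p53 target (3.32 ± 0.11), were higher in the same way. Egr1, an immediate early transcription factor, was above control after IFN-gamma with sgRNA1 alone, at 14.5 and 13.9 CPM with sgRNA1, 0.913 and 1.30 CPM with sgRNA2 and 1.45 and 1.23 CPM in control, and its interaction of 3.47 ± 0.26 was not called in the joint fit (adjusted p = 0.0873).

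Of the 1001 opposite genes called lower, 228 rose and 524 fell with the Cebpd guides, while 808 rose and 26 fell in control. Dbp, a transcription factor of the circadian clock, had 1.73 and 0.795 CPM with sgRNA1, 3.81 and 6.24 CPM with sgRNA2 and 23.3 and 21.5 CPM in control after IFN-gamma. The vehicle libraries had 2.27 and 2.11 CPM with sgRNA1, 21.5 and 21.8 CPM with sgRNA2 and 1.91 and 1.73 CPM in control. Control was the highest group after IFN-gamma, and in vehicle sgRNA2 was high while sgRNA1 lay just above control. The interaction was -5.04 ± 0.29, adjusted p = 5.5e-11. Pdcd4, an inhibitor of translation, had 8.34 and 6.76 CPM with sgRNA1, 16.6 and 17 CPM with sgRNA2 and 47.0 and 47.8 CPM in control after IFN-gamma and 10.8 and 9.17 CPM with sgRNA1, 41.9 and 38.2 CPM with sgRNA2 and 7.33 and 5.30 CPM in control in vehicle, with an interaction of -3.73 ± 0.16, adjusted p = 7.83e-13. Adssl1, of adenine nucleotide synthesis (-4.01 ± 0.15), the keratin Krt13 (-4.70 ± 0.53), Zfp773 (-4.32 ± 0.37) and Rdm1 (-3.6 ± 0.19) were lower as well.

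Mitochondrially encoded mRNAs were called lower in 11 of 13 tested, with a median of -1.37 and 9 lower in the joint fit. Of the 11, 6 were of the IFN-gamma level and 5 opposite. mt-Co1, a subunit of cytochrome c oxidase, had 1941 and 1986 CPM with sgRNA1, 2863 and 2684 CPM with sgRNA2 and 6169 and 6604 CPM in control after IFN-gamma. Without IFN-gamma it stood at 3153 and 3275 CPM with sgRNA1, 6763 and 6711 CPM with sgRNA2 and 2194 and 1971 CPM in control. It fell with the Cebpd guides (-1 ± 0.03) and rose in control (1.62 ± 0.05), and the interaction was -2.61 ± 0.06, adjusted p = 5.21e-16. mt-Nd3 was the 1 member called higher (1.12 ± 0.31), and it was not called in the joint fit (adjusted p = 0.146). The share of mitochondrial counts given above is made of these genes. Among 42 nuclear genes of oxidative phosphorylation, 17 were higher and 11 lower (7 without sgRNA2 vehicle replicate 1), with a median of 0.01, and 2 were higher and 2 lower in the joint fit. The share called, 66.7%, was near the 63.9% of all genes tested. Cytosolic ribosomal protein genes were lower in 66 of 78 tested and higher in none (in 1 to 3 without sgRNA2 vehicle replicate 1 or 2 or sgRNA2 IFN-gamma replicate 2), with a median of -0.47, and none was called in the joint fit, where Rpl17, the largest of them here (-0.93 ± 0.06), had an adjusted p of 0.186.

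**Figure D3:**
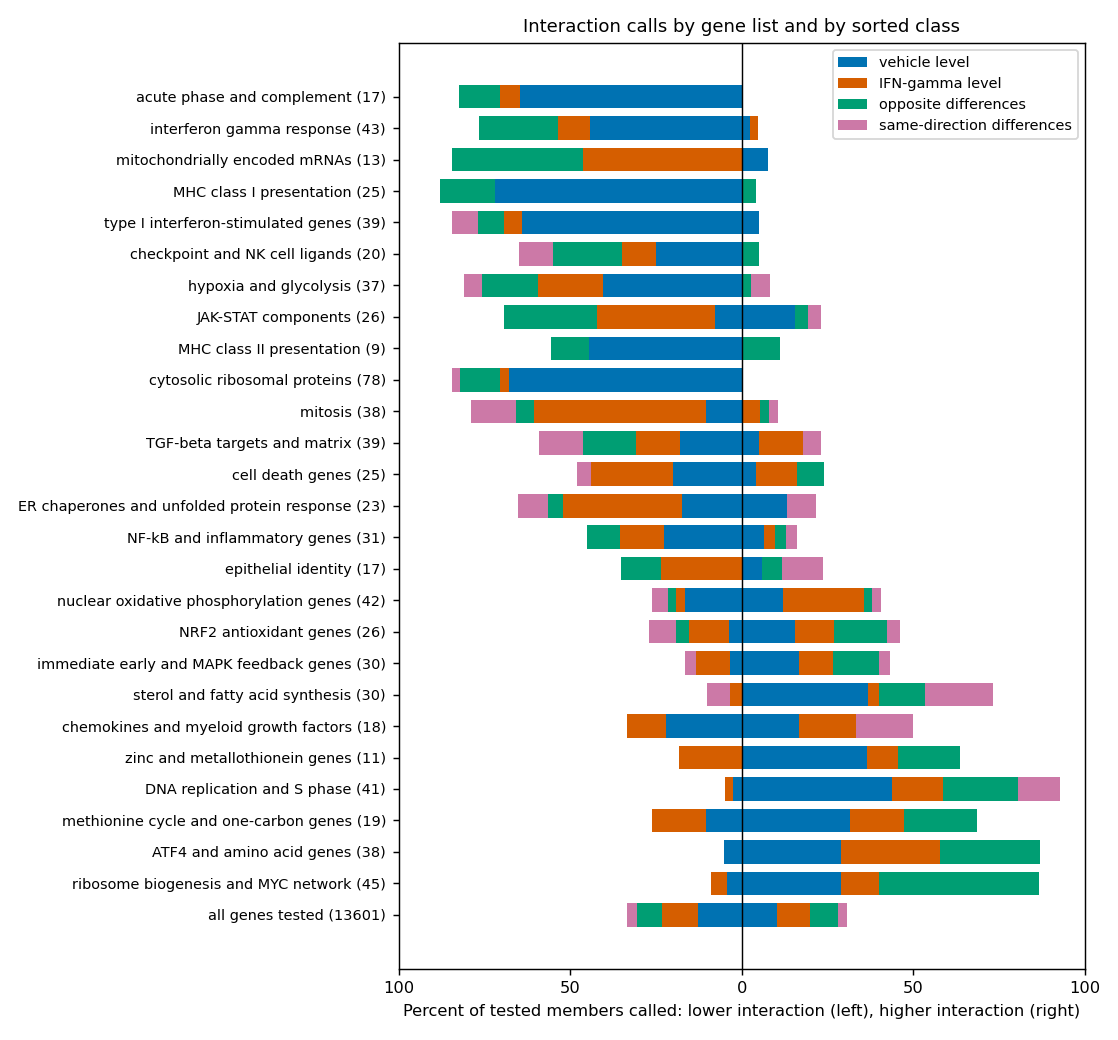
Share of the tested members of each list (number in brackets) that were called in the interaction, with lower calls to the left and higher calls to the right of 0 (percent), coloured by sorted class; all genes tested are at the bottom. MHC class I and acute phase genes are mostly blue to the left (vehicle level), mitosis genes mostly orange to the left (IFN-gamma level), and ribosome biogenesis genes mostly green to the right (opposite).

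Same-direction genes were few at 2-fold, which the sorting rule favours. Cd40, a receptor of the tumour necrosis factor family, had 6.65 and 7.20 CPM with sgRNA1, 12.3 and 9.50 CPM with sgRNA2 and 2.22 and 2.52 CPM in control after IFN-gamma. Vehicle libraries showed 5.84 and 7.85 CPM with sgRNA1, 9.64 and 11.2 CPM with sgRNA2 and 0.826 and 0.524 CPM in control. The Cebpd guides lay above control in both treatments, and the interaction of -1.76 ± 0.34, adjusted p = 0.000186 came from a rise in control (1.80 ± 0.31) beside 0.04 ± 0.12 with the Cebpd guides, which was not called. Masp1, a protease of the lectin pathway of complement, had an interaction of -1.35 ± 0.23 (adjusted p = 0.0583 in the joint fit). Ccn5, a matricellular protein, had 16 and 15 counts with sgRNA1, 15 and 16 counts with sgRNA2 and 1 and 2 counts in control after IFN-gamma. Its vehicle values were 28 and 13 counts with sgRNA1, 121 and 102 counts with sgRNA2 and 0 and 0 counts in control. With control at 0 in vehicle no fold is given, and its call was lost in the joint fit (adjusted p = 0.144) and without control IFN-gamma replicate 2 (adjusted p = 0.0791).

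Other lists were mixed. The share called in either direction was 61.3% for NF-kB and inflammatory genes and 58.8% for epithelial genes, near the 63.9% of all genes tested. It was 82.1% for TGF-beta targets and matrix genes and 81.8% for zinc and metallothionein genes. Of 31 genes of NF-kB and inflammation, 14 were lower and 5 higher (9 lower and 1 higher in the joint fit), and Irak2, a kinase of interleukin 1 receptors, was the largest of the lower ones after Icam1 (-2.27 ± 0.11, adjusted p = 7.95e-12). Of 39 TGF-beta targets and matrix genes, 23 were lower and 9 higher (10 lower and 3 higher in the joint fit). Mmp9, a gelatinase, had 207 and 207 CPM with sgRNA1, 192 and 189 CPM with sgRNA2 and 266 and 262 CPM in control after IFN-gamma. In vehicle it stood at 252 and 244 CPM with sgRNA1, 383 and 366 CPM with sgRNA2 and 75.8 and 79.0 CPM in control, and its interaction was -2.39 ± 0.05, adjusted p = 5.21e-16. Ccn2, a matricellular protein, was higher (1.38 ± 0.07, adjusted p = 1.35e-11). Of 17 tested epithelial genes, 4 were higher and 6 lower, with a median of -0.01. The lower ones included Epcam (-1.27 ± 0.05, adjusted p = 5.07e-13) and Krt19 (-1.40 ± 0.06, adjusted p = 1.65e-12). The higher ones were Esrp2, Cldn4, Grhl2 and Tjp1. The joint fit called 1 higher (Esrp2, adjusted p = 0.0469) and 3 lower. Of 11 zinc and metallothionein genes, 7 were higher and 2 lower (2 higher and 1 lower in the joint fit). In the C/EBP family Cebpz and Cebpg were higher, the call of Cebpg being lost without control vehicle replicate 1, and Cebpd and Ddit3 were lower. In the joint fit 1 of the family was higher and none lower. Cebpb, looked up for its kinship to Cebpd with its value already seen, was not called (-0.14 ± 0.08, adjusted p = 0.175).

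The guides were then set against each other, which uses no control library. The response to IFN-gamma differed between sgRNA2 and sgRNA1 in 5820 genes (42.8%), with sgRNA2 the higher in 2836 (20.9%) and the lower in 2984 (21.9%). Against control, the interaction was called in 7492 genes (55.1%) with sgRNA1 and in 8860 (65.1%) with sgRNA2, both measured against the same control libraries. Of the 8688 genes called in the mean of both guides, 4570 also differed between the guides. All 37 tested hypoxia genes were called lower with sgRNA2 than with sgRNA1 in this comparison. Of 41 DNA replication genes 38 were higher, of 45 ribosome biogenesis genes 36 were higher and 4 lower, and of 78 ribosomal protein genes 66 were higher. Of 39 type I interferon-stimulated genes, 30 were lower and 1 higher.

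**Figure D4:**
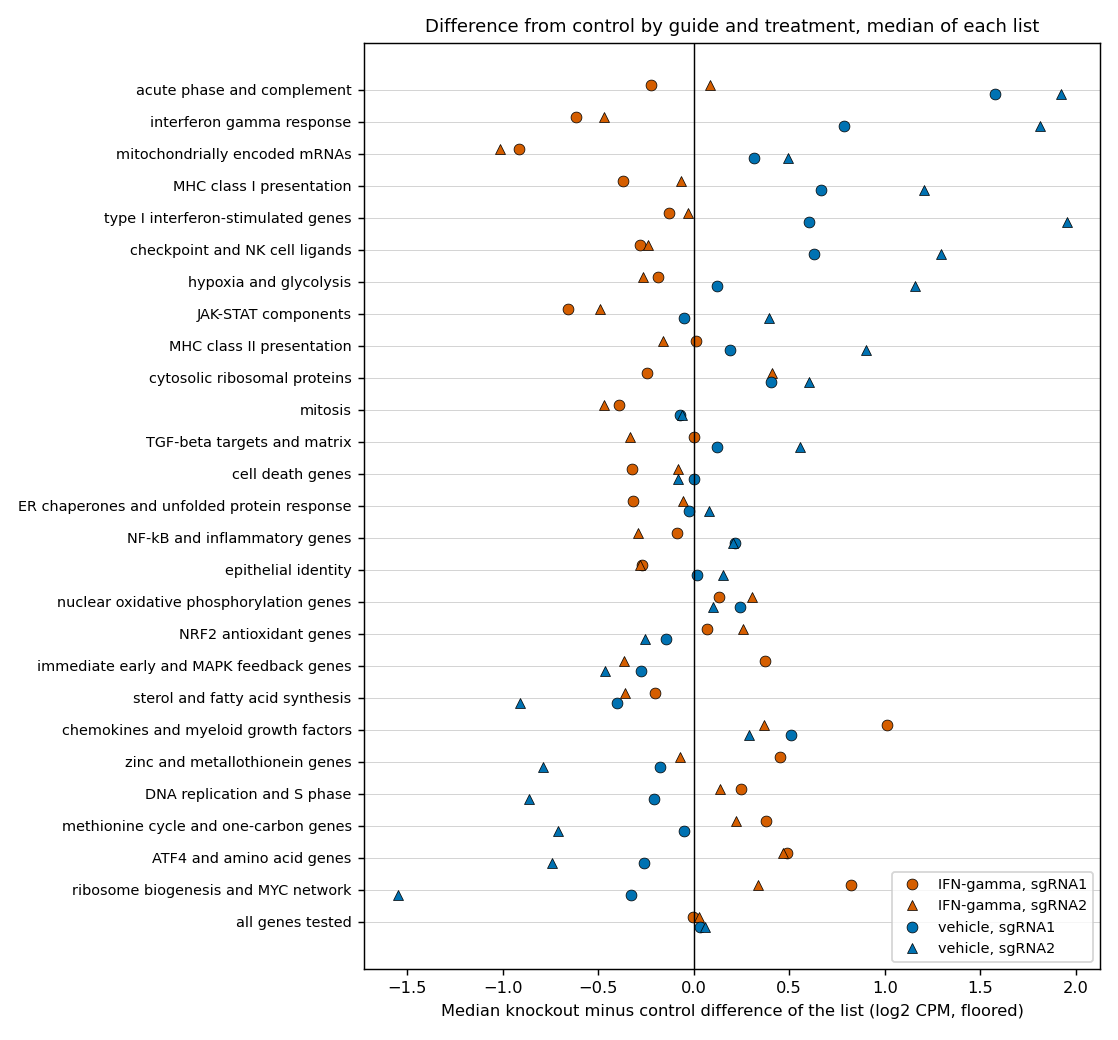
Median difference from control (log2 CPM, each library raised to at least 3 counts) over each list, for sgRNA1 (circles) and sgRNA2 (triangles) in IFN-gamma (orange) and vehicle (blue). In vehicle the triangle lies farther from 0 than the circle for hypoxia (1.16 against 0.12), ribosome biogenesis (-1.55 against -0.33) and type I interferon-stimulated genes (1.95 against 0.60).

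Mat2a and Mdn1 show how the guides can differ within 1 direction. The interaction was 1.74 ± 0.07 with sgRNA1 and 2.64 ± 0.08 with sgRNA2 for Mat2a, and the difference between them was 0.90 ± 0.07, adjusted p = 2.74e-08. For Mdn1 it was 2.63 ± 0.09 with sgRNA1 and 2.85 ± 0.10 with sgRNA2, and the difference of 0.22 ± 0.10, adjusted p = 0.0863 missed the threshold. A p that misses the threshold does not show that the guides act alike.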

How the data were processed

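RNA-seq counts per gene were deposited by the authors as whole numbers in 1 table of 12 libraries. STAR 2.4.0, HTSeq, DESeq2 1.10 and the build mm10 are listed, with no order, in the submitters' processing notes; the strand setting of the counting is not given in the sources used here, so overlapping and antisense genes, and near-identical copies (H2, Gbp, Tgtp, Ifit and Oas families), are uncertain. Genes were kept by edgeR's filterByExpr (minimum count 10, total 15), which left 99.965% of counts, scaled by TMM and fitted with edgeR 4.0.16 (limma 3.58.1, R 4.3.3) in a model of 6 groups by quasi-likelihood, with Benjamini-Hochberg adjusted p. Every library was raised to at least 3 counts for sorting, for ranking and for the median differences from control of lists, and where the text says so. This floor covers counting error only. Genes are named by size within class and sign (6 each, 3 of the same-direction class, highest group mean of at least 5 CPM, both guides alike in sign) or as the largest and the contrary members of a list. The members and lists were chosen with earlier results of these data known. Of the gene names, 15941 matched GENCODE vM21, 250 a RefSeq synonym and 92 neither. The procedure was tested on simulated data. Alternatives were DESeq2 1.42.0, other scalings and filters, joined guides, a replicate block, other sorting ratios and leaving out each library. Same-numbered libraries deviated from their group means with correlations of -0.130 to 0.048 over 15 pairs of groups.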

Additional observations from a re-analysis of the deposited data

Results flagged for a closer look

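The response to IFN-gamma differed between the Cebpd guides and control in 8688 genes by the interaction term, and between sgRNA2 and sgRNA1 in 5820 genes by a test of that difference. Both counts were marked because effects of 1 contrast differed between groups. In 185 genes the guides were called in unlike directions, each against the same control libraries. Those with sgRNA2 the higher included Apcdd1, with an interaction of 0.59 ± 0.22 with sgRNA2 and -0.53 ± 0.21 with sgRNA1 and a guide difference of 1.12 ± 0.22 (log2). Ndufaf6 had 0.48 ± 0.16 with sgRNA2 and -0.53 ± 0.16 with sgRNA1, a difference of 1.01 ± 0.16. Psmd14 had 0.65 ± 0.06 with sgRNA2 and -0.35 ± 0.07 with sgRNA1, a difference of 0.999 ± 0.065. Those with sgRNA2 the lower included Ovol1, an epithelial transcription factor, at -1.30 ± 0.33 with sgRNA2 and 1.37 ± 0.33 with sgRNA1, a difference of -2.67 ± 0.34. Smtnl2 had -1.18 ± 0.27 with sgRNA2 and 0.80 ± 0.27 with sgRNA1, a difference of -1.98 ± 0.24. Gbe1, the glycogen branching enzyme, had -0.75 ± 0.12 with sgRNA2 and 0.92 ± 0.13 with sgRNA1, a difference of -1.67 ± 0.12.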

How the results depend on the processing

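With both guides joined into 1 group, 2663 genes were called, 1080 higher and 1583 lower, sorted as 701 of the vehicle level, 1083 of the IFN-gamma level, 855 opposite and 24 of the same direction; that fit counts the difference between guides as spread. Of 40 genes (those named by size, and Cebpd), 31 were called there and 9 were not. A sorting ratio of 1.5 left 1289 opposite and 190 same-direction genes, and a ratio of 3 gave 1439 same-direction genes and made the opposite class the largest, with 3057 genes against 2214 of the vehicle level and 1977 of the IFN-gamma level. The other fits called 8692 genes (RLE scaling), 8671 (upper quartile), 8688 (no filter), 8422 (mean of at least 1 CPM) and 7975 (DESeq2), and leaving out each library gave 8031 to 8631. No gene called here was called with the other sign in any of these fits. The replicate block called 8644 genes, 8600 of them shared with the fit without it. Same-numbered libraries did not deviate together (median correlation 0.0078), so the numbers were not used as pairs; what they stand for is not given in the sources used here. The share of called genes that were higher was 47.8%, 44.3% with upper quartile scaling and 52.2% to 52.7% without sgRNA2 vehicle replicate 1 or 2 or sgRNA2 IFN-gamma replicate 1. The median interaction of all genes was then -0.0995 (upper quartile) and 0.0095 to 0.0163 (those libraries left out), against -0.052; the cause was not tested. With upper quartile scaling 6541 of the 8688 genes kept both call and class. Of the called genes, 47 had a group at 0, where few counts limit the size that can be given.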
